A study of Bos taurus with 29 samples.

Results

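The transcripts described here were those that low P4 cows carried at similar levels in the endometrial glands and the stroma, and at much lower levels in the luminal epithelium. They were chosen on measured values, the mean TPM (a level corrected for transcript length and depth) over the low P4 samples of each cell type. A transcript was taken when its means in glandular epithelial (GE) and stromal (ST) samples were both at least 5 TPM, both at least 5 times the mean in luminal epithelial (LE) samples, and less than 5-fold apart from each other. Of 37925 transcripts 62 met the rule, which was 0.163% of all and 0.614% of the 10093 transcripts with means of at least 5 TPM in both GE and ST. Since the low P4 values made the choice, the levels of low P4 cows are a description with no test.

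The samples came from 13 postpartum Holstein dairy cows with a healthy uterus, whose endometrium was biopsied at 45 days postpartum and separated by laser capture, without any experimental treatment. The 9 low P4 cows (P4low) had circulating progesterone under 1 ng/mL and the 4 high P4 cows (P4high) had more. The paper states that 4 of the low P4 cows were in anoestrus and 5 were cyclic and near oestrus. All 4 high P4 cows had a functional corpus luteum. A difference between the P4 groups is therefore also one between these reproductive states, and the 2 cannot be told apart. Low P4 cows gave 6 LE, 7 GE and 9 ST samples, and high P4 cows gave 1 LE, 3 GE and 3 ST samples, so that the 29 samples hold at most 1 sample of a cell type from each cow. Cows are numbered from 1 to 13, with cows 2, 4, 5 and 9 in the high P4 group. The sample titles begin with the letter G for cows 1 to 6 and with R for cows 7 to 13. Of the high P4 cows, 2, 4 and 5 thus have G, and of the low P4 cows only 1, 3 and 6. What the letter stands for is not given. The captured ST can hold fibroblasts, vascular cells and immune cells. The only LE sample of a high P4 cow came from cow 9, so in LE the cow and the P4 level cannot be told apart. Each sample held 24860445 to 33209181 estimated counts, each standing for a pair of reads. In samples of whole captured compartments, fewer cells of a type and less RNA per cell cannot be told apart.

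LE is a single sheet of cells that faces the uterine lumen and is the first maternal tissue that an embryo meets. The glands are continuous with this sheet and secrete much of the fluid that feeds the embryo before it attaches, while the stroma supports both epithelia, carries the vessels and passes hormonal signals to the epithelium. P4 from the corpus luteum acts on each of these compartments and prepares them for pregnancy. A transcript that GE shares with ST and not with LE runs across the usual divide between epithelium and connective tissue. The files identify transcripts by number and do not pair them with genes, so neither the function of the transcripts nor the labelled cell types could be checked against known genes. The transcripts are called here by their rank, from 1 to 62, on the lower of their GE and ST means in low P4 cows, and 4 of them also by identifier.

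The 62 transcripts were low in LE rather than lacking from it. Their mean in LE of low P4 cows ran from 0.293 to 70.6 TPM with a median of 1.58 TPM, and 15 of them had a mean under 1 TPM. None was at 0 in all 6 LE samples, 2 were at 0 in at least 3 of them and 21 in at least 1. The median estimated count behind a value was 57.7 in LE of low P4 cows, against 485 in GE and 828.9 in ST. A zero in LE allows up to 3 counts, which for the 34 zero values in low P4 cows corresponded to between 0.0244 and 3.01 TPM.

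Means ran from 5.10 to 591 TPM in GE (median 17.6 TPM) and from 5.55 to 455 TPM in ST (median 27.5 TPM). The ST mean was the higher of the pair for 53 transcripts and the GE mean for 9, with a median ratio of ST to GE of 1.77 and a range from 0.312 to 4.71. The lower of both means was from 5.02 to 38.7 times the LE mean, with a median of 7.02 times. It was at least 10 times the LE mean for 18 transcripts and at least 20 times for 6. Just outside the limits, the nearest excluded transcripts had a lower mean of 4.89 TPM, a ratio to LE of 4.89, or means 6.17-fold apart. Only 1 transcript failed on the limit between GE and ST alone, being higher in ST, whereas 9865 failed on the ratio to LE alone and 1329 on the minimum level alone. Transcript length, which the rule did not use, had a median of 2052 bases among the 62, 1899 bases among transcripts at 5 TPM in both GE and ST, and 2016 bases among all.

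**Figure D1:**
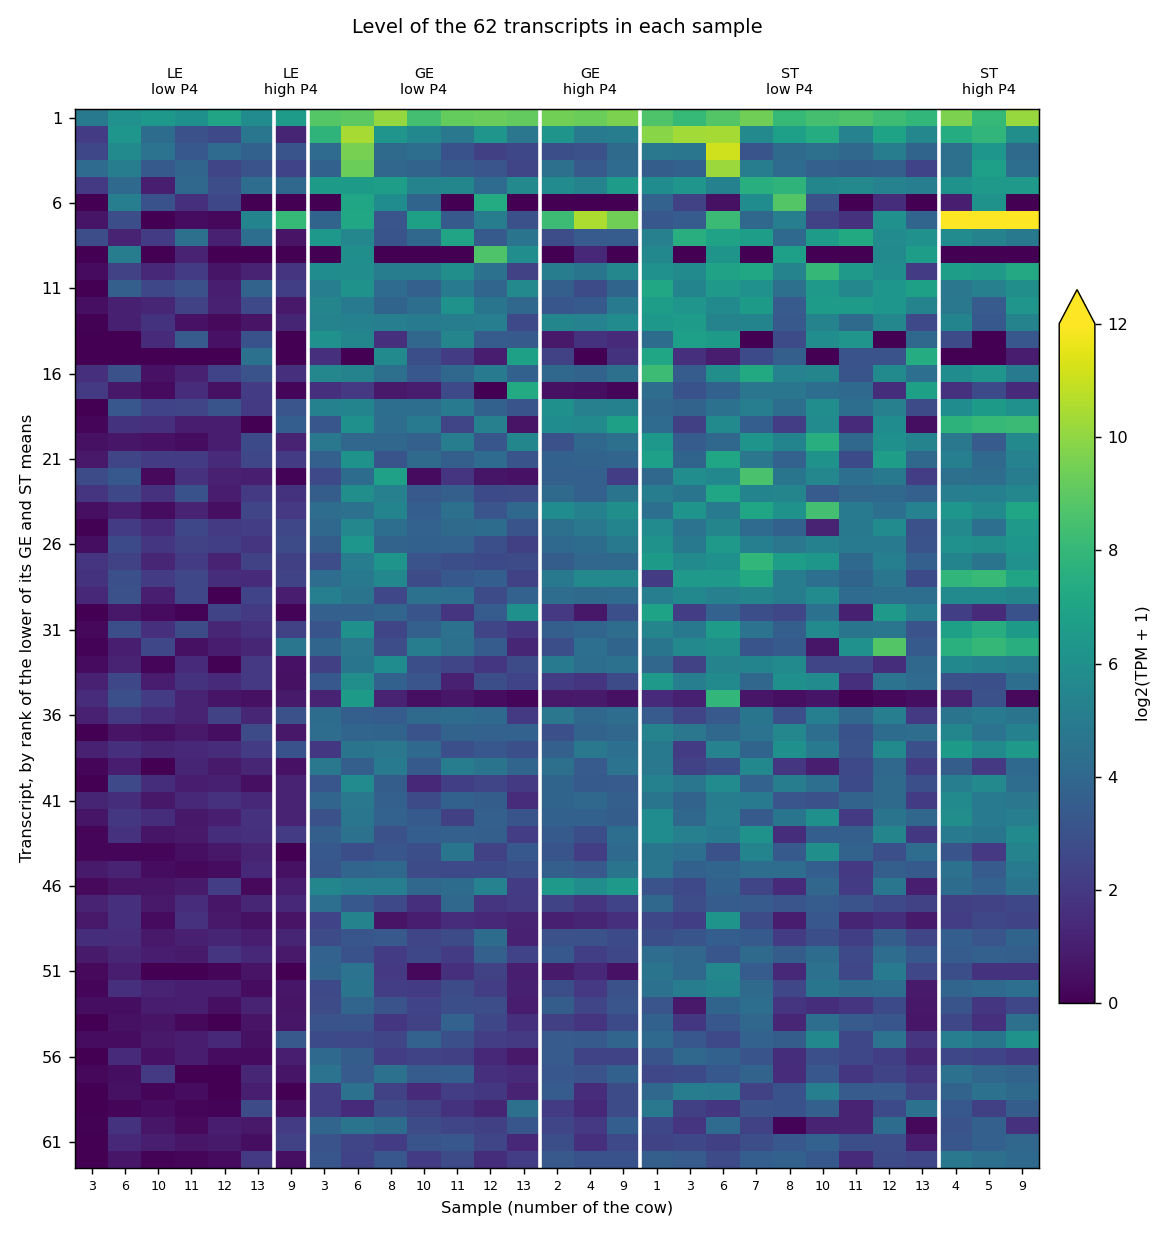
Level of each of the 62 transcripts (rows, by rank) in each of the 29 samples (columns, by cell type, P4 group and cow number), as log2(TPM + 1), with colours ending at 12. The 7 LE columns on the left are darker than nearly all GE and ST columns, the row of rank 7 is brightest in the 3 ST samples of high P4 cows, and cow 6 holds the bright cells of ranks 3 and 4 in GE and ST.

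Libraries of cow 6 stood apart and enter many of the values. The median level of the 62 transcripts was 26.0 TPM in GE of cow 6, while the other GE samples of low P4 cows lay between 5.16 and 13.0 TPM. In ST it was 38.8 TPM in cow 6 and 7.09 to 24.6 TPM in the other low P4 cows. Cow 6 gave the highest GE sample for 24 transcripts, the highest ST sample for 21, both for 15, and the highest LE sample for 25. The GE and ST counts cover the 7 low P4 cows that gave both, so ST of cows 1 and 7 was left out. Over the same samples, the shares among transcripts at 5 TPM in GE and ST were 30.2% in GE, 19.6% in ST and 33.6% in LE. The place of cow 6 at the top was thus also common outside the chosen transcripts, though less so than among the 62 in each cell type. The choice used these samples, so the gap tests nothing. The totals of its libraries, 30124345 to 33209181 counts, were the highest of the low P4 samples of each cell type. The part of depth in these levels was not tested.

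Without cow 6, 45 of the 62 transcripts still met the whole rule. The median of the means then went from 17.6 to 13.0 TPM in GE, from 27.5 to 24.6 TPM in ST and from 1.58 to 1.48 TPM in LE. For 7 transcripts the GE mean without cow 6 was under 50% of the mean with it, and for 5 the same was true of the ST mean. For ranks 3, 4 and 35, the GE or ST mean without cow 6 was at or below that of LE. These 3 therefore owed their place to 1 animal. When medians over the low P4 cows replaced means, 63 transcripts met the rule, and only 27 of them were among the 62.

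**Figure D2:**
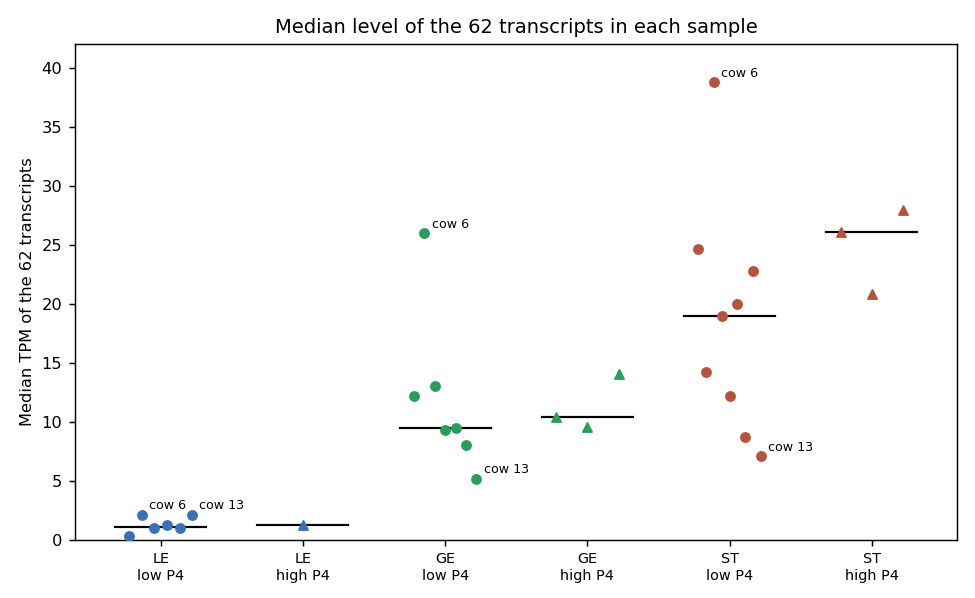
Median TPM of the 62 transcripts in each sample (vertical axis), by cell type and P4 group, with circles for low P4 cows, triangles for high P4 cows and a short line for the group median. All 7 LE samples lie between 0.347 and 2.13 TPM and all 22 GE and ST samples at 5.16 TPM or above, and cow 6 is the highest low P4 sample in GE and in ST.

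Rank 3 reached 733 TPM in GE and 2250 TPM in ST of cow 6. In the other low P4 cows it lay between 3.88 and 18.9 TPM in GE and between 7.58 and 31.4 TPM in ST, overlapping the 5.16 to 50.3 TPM of LE. Rank 4 showed the same shape, with 641 TPM in GE and 1166 TPM in ST of cow 6, and at most 14.7 and 32.6 TPM in the others. Rank 35 was at 92.2 TPM in GE and 245 TPM in ST of cow 6 and did not exceed 1.24 and 1.68 TPM elsewhere in low P4 cows. Both compartments of the same animal were thus high at once in these 3 transcripts, each by more than 30-fold over the next low P4 cow in the same cell type. Among high P4 cows, cow 5 had the highest ST levels of ranks 3, 4 and 35, at 78.0, 108 and 6.83 TPM. Rank 17 had the like in another animal, with 159 TPM in GE and 111 TPM in ST of cow 13, and at most 5.28 TPM in the other GE and 25.4 TPM in the other ST samples.

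In all, 7 transcripts had a highest sample that lay apart from the others by Dixon's criterion in both GE and ST of the same cow, 5 of them in cow 6, 1 in cow 10 and 1 in cow 13. A highest sample lying apart was found for 25 of the 62 in GE (40.3%), 17 in ST (27.4%) and 12 in LE (19.4%) of low P4 cows. Among the transcripts at 5 TPM in GE and ST the shares were 11.6%, 9.84% and 8.49%. The spread between cows, as the SD of log2(TPM + 1), had a median of 1.09 in GE, 1.32 in ST and 0.77 in LE for the 62, beside 0.54, 0.48 and 0.50 for those at 5 TPM. A choice made on means takes in transcripts that are very high in 1 sample, so these shares describe the chosen set and test nothing. Among the 7 low P4 cows that gave both, the highest GE and the highest ST sample came from the same cow for 29 of the 62 (46.8%). This was near the 40.7% of transcripts at 5 TPM.

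Within cows the order of the cell types was more even than these means. In the 6 low P4 cows that gave all 3 cell types, GE and ST were both above LE in every cow for 45 transcripts, in 5 cows for 9, in 4 cows for 2 and in fewer for 6. A difference of at least 5 times in both compartments was found in all 6 cows for 3 transcripts only, in 5 cows for 16, in 4 cows for 9 and in 3 cows for 14, with a zero in GE or ST never counted as such. For 16 of the 62 every GE and every ST sample of low P4 cows was above every LE sample, which 0.284% of the 27480 transcripts with enough counts for testing also showed. The rule used the samples of low P4 cows, and none of these counts is evidence for it.

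The 3 transcripts with at least 5 times more in both compartments of all 6 cows were ranks 13, 20 and 44. Rank 13, of 2233 bases, had the largest ratio to LE of the 62, at 38.7 times. Its lowest, median and highest levels in low P4 cows were 0.0367, 0.526 and 2.33 TPM in LE, 5.17, 33.9 and 40.3 TPM in GE, and 5.24, 40.2 and 99.9 TPM in ST. No GE or ST sample of these cows came down to the LE samples. In high P4 cows it was at 1.40 TPM in LE, at 39.2 to 54.7 TPM in GE and at 8.77 to 42.2 TPM in ST, again without overlap.

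Rank 1, ENSBTAT00000016865.6 with 880 bases, was the most abundant by the lower of its means and the one with the highest LE mean in low P4 cows. Its lowest, median and highest levels in low P4 cows were 28.0, 65.4 and 129 TPM in LE, 336, 548 and 1114 TPM in GE, and 243, 349 and 679 TPM in ST. In high P4 cows it was at 95.1 TPM in LE of cow 9, at 704, 633 and 789 TPM in GE of cows 2, 4 and 9, and at 798, 259 and 1133 TPM in ST of cows 4, 5 and 9. All GE and ST samples were above all LE samples in either P4 group, and its high and low P4 samples overlapped in both compartments. It was no longer chosen when cow 3 or cow 7 was left out, its ratio to LE being 5.31 against the limit of 5.

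Rank 2, ENSBTAT00000033863.5 with 4095 bases, varied between cows over a wide range. Its lowest, median and highest levels in low P4 cows were 3.25, 12.4 and 78.3 TPM in LE, 26.0, 75.9 and 1359.6 TPM in GE, and 39.0, 124 and 1352 TPM in ST. The ST samples fell apart into cows 1, 3 and 6, with 918, 1289 and 1352 TPM, and 6 cows between 39.0 and 173 TPM. This split follows the first letter of the sample titles, G for cows 1, 3 and 6 and R for the others. In GE, cows 3 and 6 were at 226 and 1359.6 TPM and the other low P4 cows at most at 76.0 TPM. In LE, cow 3 was lowest and cow 6 highest, and the high P4 GE samples with G were at 72.5 and 29.3 TPM. The part of the letter in these levels was not tested. Cow 6 was highest in all 3 cell types, and without it the GE mean went from 263 ± 489 TPM (SD, n = 7) to 79.9 ± 75.0 TPM (SD, n = 6). In high P4 cows it was at 1.36 TPM in LE, 72.5, 29.3 and 32.4 TPM in GE and 173, 239.6 and 59.0 TPM in ST, within the range of the low P4 cows in GE and ST and below it in LE.

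**Figure D3:**
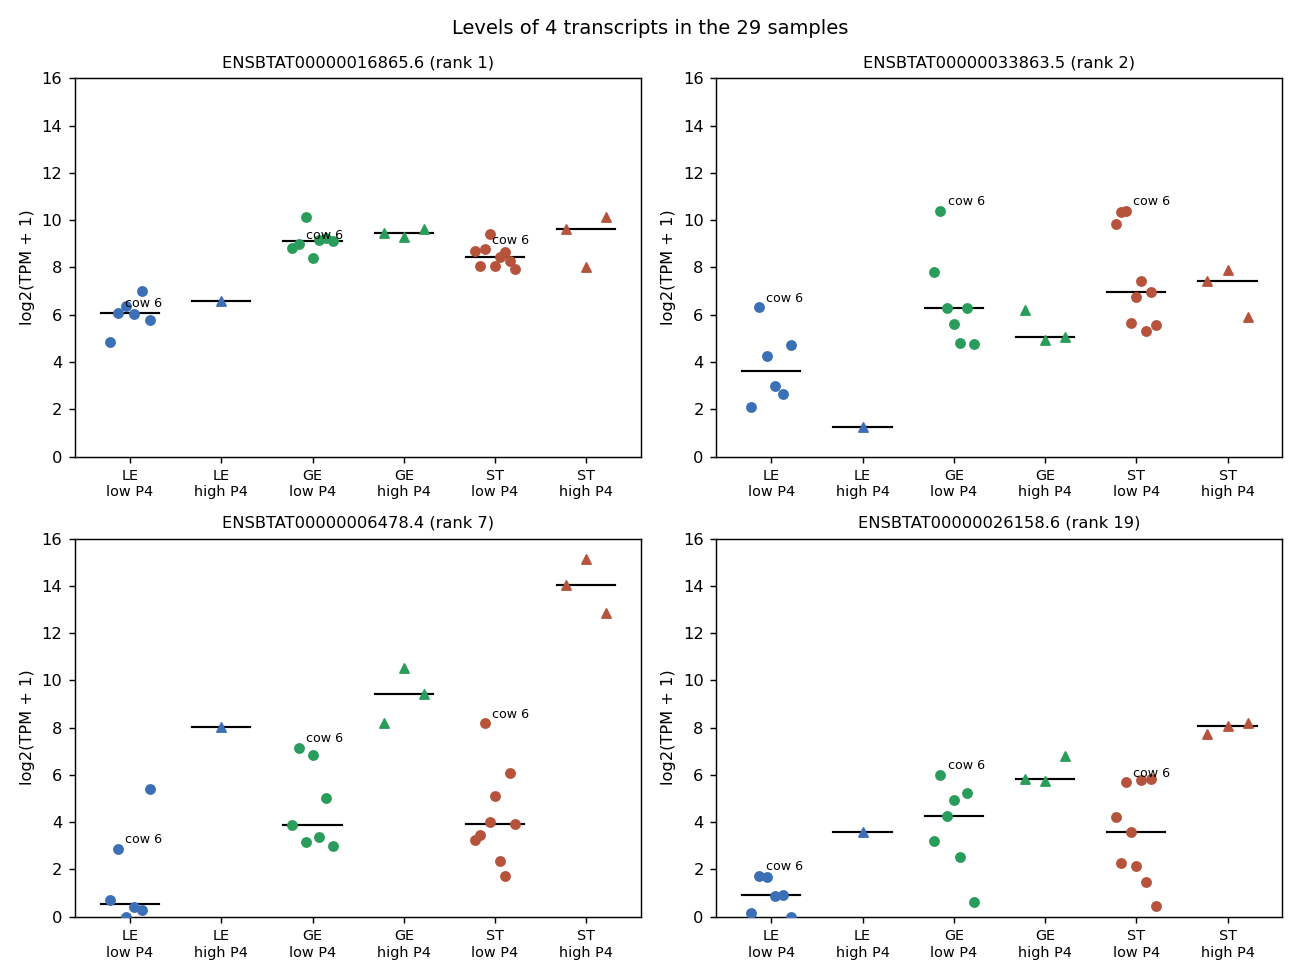
Levels of the 4 transcripts given by identifier in each of the 29 samples, as log2(TPM + 1), by cell type and P4 group, with circles for low P4 cows, triangles for high P4 cows, a line at the group median and cow 6 marked. Rank 1 forms tight groups with LE lowest, rank 2 spreads over the cows, and the high P4 samples of ranks 7 and 19 lie above all low P4 samples in ST, while those of rank 7 do so in GE as well.

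The high P4 samples took no part in the choice and came from other animals, but LE was among them in cow 9 only. They therefore show whether GE and ST of these animals lay above that 1 LE sample. GE and ST means were both above the LE sample for 58 of the 62, and 30 of the 62 (48.4%) met all limits of the rule again. Of the limits, 47 transcripts met the minimum level, 38 the 5 times over LE and 54 the limit between GE and ST. No share over all transcripts is given for these counts or for the 58, so they do not set the 62 apart. Of all transcripts at 5 TPM in GE and ST of low P4 cows, 2.37% met the limits in high P4 cows. In the same samples 305 transcripts met them in total, of which the 62 made up 9.84%. Of the 24 transcripts that were still chosen whichever low P4 cow was left out, 17 met the rule in high P4 cows.

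Within cow 9, the only high P4 cow with all 3 cell types, GE and ST were both above LE for 56 transcripts and at least 5 times LE for 39. The median ratio in this cow was 8.70 for GE over LE and 19.8 for ST over LE among the 56 transcripts above 0 in its LE, and the other 6 were at 0 there. Every high P4 GE sample was above the LE sample for 53 of the 62, beside 49.8% of the transcripts tested, and every ST sample for 56, beside 45.5%. Both held for 52 of the 62, beside 32.6%. Against a single LE sample such separation is common, and the counts should be read beside these shares. The 56 and 39 within cow 9 have no such share beside them and do not set the 62 apart.

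The differences in high P4 cows were tested for all 27480 transcripts that reached 10 counts in 3 or more samples, by edgeR's quasi-likelihood test with Benjamini-Hochberg adjustment over all of them, and all 62 were among those. The fold change of GE over LE had a median of 2.31 on the log2 scale over the 62 and 0.13 over all transcripts, with 56 of the 62 above 0. None of the 62 passed the adjusted p in this comparison, where 0.04% of all transcripts were called higher in GE, and 17 had an unadjusted p under 0.05, beside 10.1% of all transcripts in either direction. Over LE, ST had a median log2 fold change of 3.78, beside 0.08 over all transcripts, with 61 of the 62 above 0. Ranks 41 and 45 passed the adjusted p, beside 0.368% of all transcripts called higher in ST, and 31 had an unadjusted p under 0.05, beside 16.1% of all. Both comparisons share the 1 LE sample, which was assumed to vary like the other groups.

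Rank 45 was at 0.431 TPM in LE of cow 9 and at 21.4, 9.79 and 30.5 TPM in ST of cows 4, 5 and 9, a log2 fold change of 5.0 (SE 1.30) with an adjusted p of 0.0444 by edgeR. Rank 41 was at 1.29 TPM in LE and at 50.2, 30.8 and 26.4 TPM in ST of the same cows, a log2 fold change of 4.18 (SE 1.09) with an adjusted p of 0.0446 by edgeR. Every ST sample of these 2 transcripts was above the LE sample by over 20-fold, as the lowest of them were 9.79 and 26.4 TPM. With the cow as a block in edgeR the number called in ST over LE was 8, beside 0.386% of all transcripts called higher, and with limma voom blocked on the cow it was 7, beside 1.11%. With DESeq2, which gave an unadjusted p for 60 of the 62, it was 29, beside 5.12%. Without a filter on low counts or without cow 2, 4 or 5 it was 0. In GE over LE, DESeq2 called 8, beside 2.58%, and the cow block called 0 both in edgeR, beside 0.0364%, and in limma voom, beside 0.156%.

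**Figure D4:**
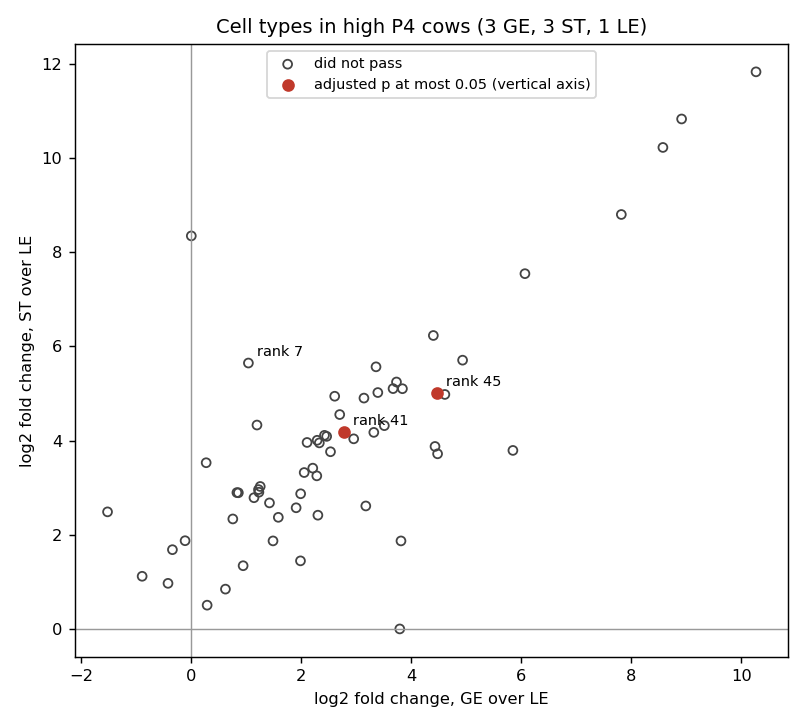
Fold change over LE in high P4 cows of each of the 62 transcripts, on the log2 scale, for GE (horizontal axis) and ST (vertical axis), from the edgeR fit; both axes share the 1 LE sample of cow 9. Nearly all points lie to the right of and above 0, most lie higher for ST than for GE, and the 2 filled points, ranks 41 and 45, passed the adjusted p for ST. Ranks 6, 14, 51 and 58, which hold the values beyond 8 together with rank 44, were at 0 in LE, and their fold changes depend on the small count that the fit adds.

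Between the compartments, ST stayed the higher one in high P4 cows. The ST mean exceeded the GE mean for 55 of the 62, against 53 in low P4 cows, and the median ratio of ST to GE was 2.67. The median log2 fold change of GE over ST was -1.46. None of the 62 passed the adjusted p of edgeR for GE against ST, while 5.27% of all transcripts did, and 13 had an unadjusted p under 0.05, beside 22.8% of all. The rule kept only transcripts less than 5-fold apart between GE and ST in low P4 cows, which by itself favours few calls. The fit also shares its estimate of spread with the low P4 samples, where the 62 varied more between cows than others at 5 TPM. DESeq2 called 6, of which 5 were lower in GE, beside 14.2% of all transcripts. The cow block called 0 in edgeR, beside 0.742%, and 11 in limma voom, of which 10 were lower in GE, beside 15.1%. Rank 46 went the other way, with 57.1 to 89.9 TPM in the 3 GE samples and 12.5 to 23.8 TPM in the 3 ST samples of high P4 cows, and with the lowest ratio of ST to GE in low P4 cows, 0.312.

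In the comparison of high with low P4 cows, the low P4 samples are those that chose the transcripts. In ST, 1 of the 62 was higher with P4 by edgeR at the adjusted p, beside 0.171% of all transcripts, and 0 were lower, beside 0.00728%. The unadjusted p was under 0.05 for 11 of the 62, beside 10.8% of all. In GE none was called, beside 0% of all transcripts in either direction, and 9 of the 62 had an unadjusted p under 0.05, beside 9.31% of all. The median log2 fold change with P4 was -0.23 in ST and -0.40 in GE for the 62, beside -0.04 and -0.09 over all transcripts. Without cow 6 it was 0.03 in ST and -0.20 in GE for the 62, beside -0.02 and -0.09. A choice for high GE and ST means in low P4 cows by itself lowers these fold changes. The medians of the 62 are therefore no evidence of a fall with P4. With limma voom blocked on the cow, 1 was called in GE, beside 0.277% of all transcripts, and 2 in ST, beside 0.324%. With DESeq2 the calls were 2 in GE, both lower, beside 2.15% of all, and 2 in ST, 1 in each direction, beside 1.55%.

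Rank 7, ENSBTAT00000006478.4 with 1378 bases, was the transcript that rose with P4 in ST. It was at 16670 TPM in cow 4, 36302 TPM in cow 5 and 7356 TPM in cow 9, while the 9 low P4 cows had a lowest level of 2.32, a median of 14.3 and a highest level of 291 TPM in ST. No sample overlapped, and the lowest high P4 sample was more than 20 times the highest low P4 sample, that of cow 6. In cows 4, 5 and 9 it made up 1.67%, 3.63% and 0.736% of all TPM and ranked 1, 1 and 9 among all transcripts. The log2 fold change was 8.43 (SE 1.47) with an adjusted p of 0.0116 by edgeR, and it was 7.73 to 9.58 when each cow was left out in turn, with adjusted p from 0.00648 to 0.0520. Without cow 4 it no longer passed (log2 fold change 8.54, adjusted p = 0.0520 by edgeR).

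In GE, rank 7 was at 295, 1459 and 685 TPM in the high P4 cows 2, 4 and 9, above the 6.96, 13.8 and 141 TPM that were its lowest, median and highest levels in low P4 cows. The samples again did not overlap, but the log2 fold change of 3.99 (SE 1.41) did not pass the adjusted p of edgeR (0.381). It passed with limma voom blocked on the cow, with a log2 fold change of 4.76 and an adjusted p of 0.0237. The difference between the P4 effects of ST and GE was 4.44 on the log2 scale (SE 2.19), with an unadjusted p of 0.0535 and an adjusted p of 1.00 by edgeR. For this difference 0 of the 62 were called, beside 0% of all transcripts, and none of the 62 had an unadjusted p under 0.05, beside 4.02% of all. DESeq2 called 0 of the 62 for it as well, beside 0.592% of all, with 3 under that unadjusted p.

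LE of cow 9 held 263 TPM of rank 7, and the LE samples of low P4 cows held between 0 and 41.4 TPM with a median of 0.472 TPM. All 3 compartments of the high P4 cows were therefore above all samples of the same compartment from low P4 cows. Within cow 9 the level of 263 TPM in LE compared with 685 in GE and 7356 in ST, so that rank 7 did not meet the rule in high P4 cows. Its place among the 62 was not firm in low P4 cows either, since it was lost when cow 6, 10 or 12 was left out.

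Rank 19, ENSBTAT00000026158.6 with 3781 bases, was next by adjusted p. It was at 213, 265 and 290.2 TPM in ST of cows 4, 5 and 9, and the lowest, median and highest ST levels of low P4 cows were 0.359, 11.05 and 55.9 TPM. The groups did not overlap, yet the log2 fold change of 3.31 (SE 1.01) had an adjusted p of 0.247 by edgeR, and one of 0.0155 with limma voom blocked on the cow. In GE it was at 55.4, 52.8 and 110.3 TPM in cows 2, 4 and 9, against 0.553, 18.4 and 63.8 TPM as the lowest, median and highest in low P4 cows, so that the groups overlapped there by the level of cow 6. LE of cow 9 had 10.99 TPM and the LE samples of low P4 cows at most 2.34 TPM.

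**Figure D5:**
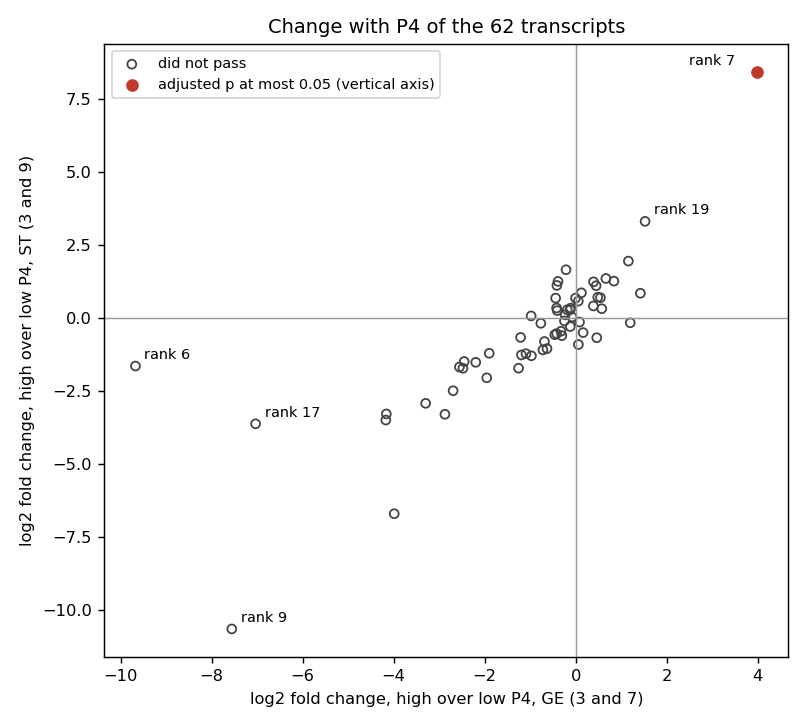
Change with P4 of each of the 62 transcripts, as the log2 fold change of high over low P4 cows, in GE (horizontal axis, 3 and 7 samples) and ST (vertical axis, 3 and 9 samples), from the edgeR fit. Rank 7 is the filled point at the upper right, the one transcript that passed the adjusted p in ST, and ranks 6, 9 and 17 at the lower left did not pass it. Rank 6 in GE and rank 9 in ST were at 0 in all high P4 samples, and their fold changes depend on the small count that the fit adds.

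Complete separation of high and low P4 samples in ST was seen for 4 of the 62 in the upward direction, beside 3.45% of all transcripts tested, and for 0 in the downward direction, beside 0.375%. Besides ranks 7 and 19 these were rank 57, with 13.2 to 21.7 TPM in high P4 and 1.90 to 13.1 TPM in low P4 cows, and rank 62, with 15.9 to 26.5 TPM against 1.66 to 12.2 TPM. In GE, 2 of the 62 were separated upward, beside 4.01%, and 0 downward, beside 0.771%. These were rank 7 and rank 46, the latter with 57.1 to 89.9 TPM in high P4 and 3.23 to 44.3 TPM in low P4 cows. As shares of the 62 the upward counts were 6.45% in ST and 3.23% in GE. None of ranks 46, 57 and 62 passed the adjusted p of edgeR for P4.

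Leaving rank 7 aside, the summed level of the other 61 transcripts was compared between the P4 groups without a test. In ST it was 2929 to 3727 TPM in high P4 cows and 1387 to 7714 TPM in low P4 cows, with a median of 2903 TPM. In GE it was 1426 to 1979 TPM in high P4 and 1012 to 5094 TPM in low P4 cows, with a median of 1749 TPM. High P4 samples lay inside the range of the low P4 samples in both compartments. With rank 7 included, the sum in ST was 11083 to 39231 TPM in high P4 cows, above the 1401 to 8005 TPM of low P4 cows.

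The largest fitted falls with P4 belonged to transcripts that were high in a few low P4 cows and did not pass the test. Rank 9 was at 0 in all 3 ST samples of high P4 cows, and at 0 in 4 and between 47.1 and 108 TPM in 5 of the ST samples of low P4 cows. In GE it was at 409.7 TPM in cow 12, at 62.5 and 57.8 TPM in cows 6 and 13, and at 0 in the other 4 low P4 cows. Its samples with and without signal were found side by side in the low P4 group. Rank 6 had a like pattern in GE, with 0 TPM in all 3 high P4 samples and in 3 low P4 samples, and between 13.4 and 168 TPM in the other 4.

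Cow 13 stood opposite to cow 6. Its GE and ST samples had the lowest medians over the 62 transcripts among low P4 cows, 5.16 and 7.09 TPM, while its LE sample had the highest, 2.13 TPM, level with that of cow 6. It was the highest LE sample for 21 of the 62, beside 10.3% of transcripts at 5 TPM in GE and ST. Without cow 13, 102 transcripts met the rule and 60 of the 62 were among them. What sets the samples of cow 13 apart was not tested.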

How the data were processed

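The RNA of 29 samples, taken from the LE, GE or ST of 13 cows, was sequenced. The authors made full-length cDNA from small amounts of captured RNA, quantified the reads with Salmon 1.1.0 against the Ensembl cDNA of ARS-UCD1.2, and deposited for each transcript an estimated count, without normalization, and a TPM value computed by Salmon. Salmon divides reads among similar transcripts, so levels of isoforms and near-identical copies are uncertain.

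Levels are TPM. Estimated counts were rounded, and those transcripts reaching 10 in 3 or more samples entered edgeR 4.0.16 (quasi-likelihood, TMM, R 4.3.3) in a model with 6 groups (cell type by P4), the threshold being 0.05 after Benjamini-Hochberg adjustment. The model treats samples of a cow as independent. The sample titles mark the cow, and deviations from group means of samples from the same cow had a median correlation of 0.230 (21 pairs, 0.0714 to 0.378), beside -0.0108 between cows (231 pairs). Alternatives were the cow as a block in edgeR or limma 3.58.1, DESeq2 1.42.0, RLE size factors, no filter, the first letter of the titles as a covariate, and each cow left out. Of the fits, only the main edgeR model was tried on simulated counts, for high against low P4 in ST and with independent samples. Each cow is 1 replicate, and precision at low levels covers counting error only.

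The transcripts, lists and tests were chosen with earlier results of these data known. Gene lists and cell type markers could not be applied, as the files do not pair transcripts with genes, and no sequences were used here. Identifiers are given for the 2 transcripts highest by rank and the 2 with the lowest adjusted p for P4, and others are given by rank, chosen after their values were seen. The test of the P4 effect in ST against GE, the rule in high P4 samples the values without cow 6, and limma voom and the title letter for the comparisons within high P4 cows were added after seeing the data. Figures were drawn with matplotlib 3.10.9, tables with Python 3.11.15, numpy 2.4.6 and pandas 2.3.3.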

Additional observations from a re-analysis of the deposited data

Results flagged for a closer look

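The level of 1 sample lay far from the others of its group, by Dixon's criterion, in 19 cases among the low P4 samples of 9 transcripts and of the summed and median levels. The criterion is set to mark about 5% of groups by chance, counting both ends, when values are normally distributed. Here it was applied to TPM, which need not be so distributed. Among transcripts at 5 TPM in GE and ST it marked the highest sample for 8.49% in LE, 11.6% in GE and 9.84% in ST. In all, 27 groups of single transcripts were examined. Some of these transcripts were taken up after their values were seen, so the flags cannot be set against either rate. Cow 6 accounted for most of the cases. It had the highest GE and ST levels of rank 3 (733 and 2250 TPM), rank 4 (641 and 1166 TPM) and rank 35 (92.2 and 245 TPM), the highest LE and GE levels of rank 2 (78.3 and 1359.6 TPM), the highest LE level of rank 9 (33.3 TPM) and the highest ST level of rank 7 (291 TPM). The summed level of the 62 transcripts was also apart in cow 6, at 5235 TPM in GE and 8005 TPM in ST, as was their median in GE, at 26.0 TPM.

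Other cows were apart in single transcripts. Rank 1 was apart in GE of cow 8 (1114 TPM) and ST of cow 7 (679 TPM), rank 7 in LE of cow 13 (41.4 TPM), rank 9 in GE of cow 12 (409.7 TPM), and rank 17 in GE and ST of cow 13 (159 and 111 TPM). In ranks 3, 4, 17 and 35 the same cow was apart in both GE and ST, which are separate captures and libraries of 1 biopsy.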

How the results depend on the processing

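The number of transcripts that met the rule was 63 with medians in place of means, of which 27 were among the 62, 53 after rescaling by TMM, 43 at a minimum of 10 TPM, 18 at 10 times LE, and 52 to 102 when each low P4 cow was left out, the extremes being without cow 6 and without cow 13. Of the 62, 38 were lost in at least 1 of these last 9 choices. In high P4 cows the number called was 8 (GE over LE), 29 (ST over LE) and 6 (GE against ST) with DESeq2, 8 in ST over LE with the cow as replicate block in edgeR, 7 in ST over LE and 11 in GE against ST with limma voom blocked on the cow, 1 in GE against ST with the title letter as covariate, and 0 in ST over LE without a low-count filter. Leaving out cows 2, 4 and 5 in turn gave 0 in ST over LE throughout, and cow 9 could not be left out. For P4, DESeq2 called 2 in GE and 2 in ST, limma voom blocked on the cow 1 in GE (rank 7) and 2 in ST (ranks 7 and 19), and leaving out each cow gave 0 in GE throughout and 0 to 1 in ST, with 0 without cow 4. The replicate block changed no other count of calls given here. Leaving out single low P4 cows moved the number called in ST over LE of high P4 cows both up and down. In GE against ST of high P4 cows it was 1 without cow 3, 6, 8 or 13 and 0 without cow 1, 7, 10, 11 or 12. The change of rank 1 (ENSBTAT00000016865.6) with P4 in GE, -0.0031 on the log2 scale, turned to 0.0057 without the filter and 0.32 with the title letter as covariate, and ran from -0.12 to 0.19 when cows were left out. The causes were not tested. LE of high P4 cows, with 1 library, and low counts in LE limit the comparisons with LE.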
